A study of Mus musculus with 8 samples.

Results

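Complement is a cascade of blood and tissue proteins that tags targets for removal. C1q, its first recognition molecule in the classical pathway, is built from A, B and C chains encoded by C1qa, C1qb and C1qc; bound C1q leads, through the proteases C1r and C1s, to cleavage of C4 and then C3. The fragments C3a and C5a signal through G protein-coupled receptors encoded by C3ar1 and C5ar1, and C5ar2 encodes a further receptor for C5a. In mouse brain, microglia are the main source of C1q, and C1q and C3 are known for tagging synapses that are then engulfed by microglia. 8 complement genes are described here: C1qa, C1qb, C1qc, C3, C4b, C3ar1, C5ar1 and C5ar2. All 8 were found among the 21375 genes of the files, and 7 of them passed the filter on low counts and were tested.

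The data were RNA-seq profiles of sorted cells from the central amygdala of male mice. PKCd mice carried PKC delta-type::Cre and SST mice carried SST::Cre, and both carried the Cre-dependent reporter Rosa::loxP-STOP-loxP-td-Tomato, so the cells sorted were those with a history of Cre from the Prkcd or the Sst promoter. Each library held about 1000 td-Tomato+ cells sorted from tissue punches of 1 mouse. There were 4 PKCd libraries (replicates 1 and 2 from mice of 9 weeks, replicates 3 and 4 of 18 weeks) and 4 SST libraries (replicates 1 and 2 from mice of 8 weeks, replicates 3 and 4 of 20 weeks).

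Depth ran with age class. Libraries of mice of 8 to 9 weeks held 10316149 to 18242496 estimated counts, and those of 18 to 20 weeks held 964361 to 2522749. Age, depth and any sequencing batch that ran with them therefore cannot be told apart. Prkcd stood at 106.5 to 225.7 TPM (the abundance of a transcript corrected for its length and scaled to a fixed total) in PKCd libraries and 0 to 30.2 TPM in SST libraries. Sst stood at 0.209, 222.7, 4.33 and 13.7 TPM in PKCd replicates 1 to 4, replicate 2 within the SST range, against 116.3 to 296.2 TPM in SST libraries. Markers of other cells were present in every library although the sort was for td-Tomato+ cells of neuronal Cre lines. A list of 6 neuronal markers summed to 289.2 ± 173.1 TPM in PKCd and 227.1 ± 148.7 TPM in SST libraries (mean ± SD, n = 4 each), and 6 oligodendrocyte markers summed to 20528 ± 7508 TPM in PKCd and 26468 ± 22913 TPM in SST libraries. A list of 12 microglial markers that holds no complement gene summed to 24880 ± 8003 TPM in PKCd and 1746 ± 1772 TPM in SST libraries.

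The C1q genes lie next to each other on the minus strand of chromosome 4 (GRCm38): C1qb at 136880126 to 136886200, C1qc at 136889801 to 136892936 and C1qa at 136895916 to 136898844, with 3600 and 2979 bases between them. For each of these neighbouring genes the lowest PKCd library stood above the highest SST library. Among SST libraries, replicate 1 was highest and replicate 4 lowest for each chain. Among PKCd libraries the order differed between the chains. Replicate 2 was highest for C1qa but lowest for C1qc, and replicate 3 was highest for C1qb and C1qc. Whether the genes share regulation was not tested. The promoter sequences of C1qb and C1qc are shown because of the gap between the populations that these neighbours share. Both are printed 5′ to 3′ on the minus strand from the RefSeq promoter table of GRCm38.p6 and end before the first annotated transcript start; capitals mark GAGGAA, the core of the site of the myeloid factor PU.1, or its reverse complement.
C1qb, chr4:136886201-136886450: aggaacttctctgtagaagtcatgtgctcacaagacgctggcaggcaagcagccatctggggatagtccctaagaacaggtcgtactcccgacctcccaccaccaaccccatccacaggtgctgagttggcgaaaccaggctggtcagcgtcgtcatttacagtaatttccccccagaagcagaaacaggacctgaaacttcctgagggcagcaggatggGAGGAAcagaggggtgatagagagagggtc
C1qc, chr4:136893066-136893164: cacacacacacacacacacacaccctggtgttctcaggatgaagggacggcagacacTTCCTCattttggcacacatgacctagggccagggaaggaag

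The match lay 30 to 25 bases before the RefSeq start in C1qb, and 193 to 188 bases before it, on the other strand, in C1qc. GAGGAA was not particular to the C1q genes, as a window of C5ar2 also held it, 26 to 21 bases before its start. Of 32851 promoter windows of 250 bases in the table, 23.3% held GAGGAA on either strand, so such a match is common and is given as a description of the sequence. For the other motifs searched on both strands, TTCNNNGAA (STAT), GAAANNGAA (interferon response core), TGANTCA (AP-1) and TATAA, neither C1q window held a match, and the shares of all windows with one were 7.02%, 7.13%, 6.75% and 22.8%. The interferon response core was matched in the promoter of C5ar1, 66 to 58 bases before the RefSeq start on the other strand. The AP-1 motif and TATAA were matched in the promoter of C3ar1, the AP-1 match 22 to 16 bases before the RefSeq start and shown here in capitals because C3ar1 is the receptor whose levels did not overlap between the populations.
C3ar1, chr6:122856162-122856407, minus strand: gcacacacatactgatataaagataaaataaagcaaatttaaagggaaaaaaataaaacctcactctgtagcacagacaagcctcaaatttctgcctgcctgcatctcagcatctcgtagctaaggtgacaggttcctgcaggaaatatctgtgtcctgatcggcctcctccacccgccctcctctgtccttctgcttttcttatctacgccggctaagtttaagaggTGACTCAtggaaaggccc

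The first question was whether the complement genes differed between PKCd and SST libraries. The 3 C1q chains were among the most abundant messages of the PKCd libraries and were present at a lower level in every SST library. C1qa passed the test across all genes, while C1qb and C1qc, with levels that also did not overlap, did not. C3ar1 did not overlap between the populations either, C5ar1, C5ar2 and C4b overlapped, and C3 was at or near 0 throughout. In bulk samples such as these, fewer cells of a type and less RNA per cell cannot be told apart.

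C1qa, which encodes the A chain, had 4114, 4129, 3568 and 2238 TPM in PKCd replicates 1 to 4, against 380.4, 137.1, 80.2 and 27.7 TPM in SST replicates 1 to 4. The lowest PKCd library thus lay above the highest SST library, and SST replicate 4 was the lowest of all. The means were 3512 ± 888 TPM in PKCd and 156.4 ± 155.9 TPM in SST libraries (mean ± SD, n = 4 each), which differ 22.5-fold (43.0-fold without SST replicate 1, the highest SST library). The log2 fold change in the edgeR quasi-likelihood test, with a term for age class, was 4.82 ± 0.73 (SE), with an adjusted p of 0.0235 over 11370 genes. The call ended in 6 of the 8 fits that left out 1 library, all but those without PKCd replicate 2 (edgeR adjusted p = 0.0421) and without SST replicate 1 (0.01), with adjusted p-values of 0.0521 to 0.126. On the log2 scale the fold change ran from 4.37 without SST replicate 4 to 5.58 without SST replicate 1; the call also ended with no term for age class (edgeR adjusted p = 0.0899).

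C1qb, which encodes the B chain, had 8522, 9056, 12316 and 6710 TPM in PKCd replicates 1 to 4, against 1725, 346.9, 351.6 and 53.8 TPM in SST replicates 1 to 4. It ranked 5, 5, 5 and 10 among all genes by TPM in the PKCd libraries, against 67, 505, 513 and 3051 in the SST libraries. Its log2 fold change was 4.26 ± 0.96 (SE; edgeR adjusted p = 0.147), and 5.38 (0.0163) without SST replicate 1. C1qc, which encodes the C chain, had 6483, 5270, 7531 and 5512 TPM in PKCd replicates 1 to 4, against 895, 451.2, 247.3 and 57.2 TPM in SST replicates 1 to 4. In both genes all PKCd libraries lay above all SST libraries, SST replicate 1 was the highest SST library and SST replicate 4 the lowest. The log2 fold change of C1qc was 4.25 ± 0.78 (SE), just outside the threshold with an edgeR adjusted p of 0.0540, and 4.88 (0.0163) without SST replicate 1. Over their alternatives these adjusted p-values ran from 2.8e-14 to 0.864 for C1qb and from 3.87e-13 to 0.772 for C1qc, the lowest of each with no filter on low counts.

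**Figure D1:**
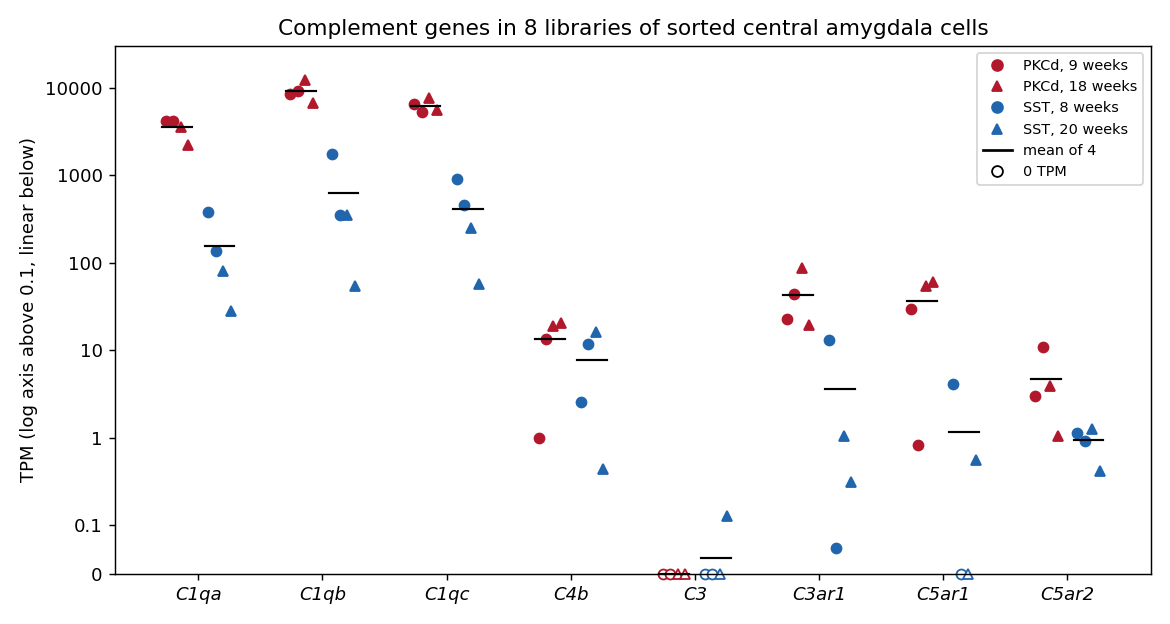
TPM of the 8 complement genes in each library, PKCd to the left of SST for each gene, on an axis that is logarithmic above 0.1 TPM and linear below; circles are mice of 8 or 9 weeks, triangles mice of 18 or 20 weeks, open symbols 0 TPM and bars the mean of 4 libraries. The C1q chains stand at 2238 to 12316 TPM in PKCd and 27.7 to 1725 TPM in SST libraries, and C3 has a value above 0 in 1 library.

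C4b encodes complement C4, the substrate of activated C1s, and lies on chromosome 17 (34728139 to 34743902). It had 0.996, 13.4, 18.7 and 20.2 TPM in PKCd replicates 1 to 4, against 2.58, 11.8, 16.1 and 0.434 TPM in SST replicates 1 to 4. The populations overlapped, with 1 low library in PKCd and 2 in SST. The log2 fold change was 0.81 ± 1.24 (SE; edgeR adjusted p = 0.955), and it was -0.37 in limma-voom. C4b has a near-identical neighbour, C4a, so how reads were shared out between the copies is uncertain; C4a was assigned at most 0.291 TPM in a PKCd library and 0.292 TPM in an SST library. C3, the protein on which all complement pathways meet (chromosome 17, 57203967 to 57228136), had 0 counts in every PKCd library and in SST replicates 1 to 3, and 1 count (0.127 TPM) in SST replicate 4. Where no count was seen, up to 3 counts remain possible, worth 0.0507 TPM in the deepest library and 1.05 TPM in the shallowest. C3 did not pass the filter, so no test was made in the main analysis.

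C3ar1, which encodes the receptor for C3a (chromosome 6, 122847140 to 122856157), had 22.9, 43.8, 85.9 and 19.6 TPM in PKCd replicates 1 to 4, against 13, 0.0532, 1.03 and 0.309 TPM in SST replicates 1 to 4. SST replicate 1 stood close to the lowest PKCd library, and the other SST libraries held 2 to 4 counts each. The log2 fold change was 4.08 ± 1.67 (SE; edgeR adjusted p = 0.643); it was called by DESeq2 (adjusted p 0.0345) and by edgeR with no filter (0.0363), which called 1.29% of the genes it tested as higher. Without SST replicate 1 it was 7.46 (edgeR adjusted p = 0.0512).

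C5ar1, which encodes the main C5a receptor (chromosome 7, 16246743 to 16259540), had 29.2, 0.826, 54.7 and 59.9 TPM in PKCd replicates 1 to 4, against 4.09, 0, 0 and 0.549 TPM in SST replicates 1 to 4. PKCd replicate 2 fell within the SST range with 14 counts, and the other 3 PKCd libraries lay above it. The log2 fold change was 4.76 ± 2.27 (SE; edgeR adjusted p = 0.776), and without SST replicate 1 it was 8.35 (0.256). C5ar2, which lies 2588 bases from C5ar1 on the same strand and encodes a C5a receptor that does not couple to G proteins, had 3.02, 10.8, 3.88 and 1.05 TPM in PKCd replicates 1 to 4, against 1.12, 0.914, 1.27 and 0.414 TPM in SST replicates 1 to 4. PKCd replicate 2, the lowest PKCd library for C5ar1, was the highest for C5ar2. The log2 fold change of C5ar2 was 2.19 ± 1.46 (SE; edgeR adjusted p = 0.868).

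Both C5a receptors have 2 RefSeq transcripts in the files. For C5ar1 the 2481-base transcript was assigned 682 counts in PKCd replicate 1 and the 2540-base transcript 119, whereas in PKCd replicates 3 and 4 nearly all reads, 74 and 128 counts, went to the longer one, and in SST replicate 1 all 105 went to the shorter one. The division between transcripts of 1 gene was estimated by the authors' tool, so it is uncertain.

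Counted together, 1 of the 7 tested genes passed as higher in PKCd libraries and 0 as lower (edgeR, threshold 0.05 on the adjusted p), against 0.281% and 0% of all 11370 genes tested; 4 of the 7 had an unadjusted p under 0.05, as did 6.68% of all genes. DESeq2 called 4 of the 7 (C1qa, C1qb, C1qc and C3ar1) and limma-voom the 3 C1q chains, each as higher, where these tools called 3.21% (DESeq2) and 0.405% (limma-voom) of all genes higher. All 4 PKCd libraries lay above all 4 SST libraries for 4 of the 7 genes, as they did for 4.08% of all genes tested. The median log2 fold change was 4.25 over the 7 genes and -0.08 over all genes tested.

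The second question was whether age class mattered. Taken singly, the 3 C1q chains stood at 27.7 to 351.6 TPM at 20 weeks and 137.1 to 1725 TPM at 8 weeks in SST libraries. In PKCd libraries they stood at 2238 to 12316 TPM at 18 weeks and 4114 to 9056 TPM at 9 weeks. Summed over the chains, SST libraries held 138.65 and 679.2 TPM at 20 weeks and 935.3 and 3000 TPM at 8 weeks, which do not overlap. The PKCd sums, 14460 and 23415 TPM at 18 weeks and 18454 and 19119 TPM at 9 weeks, overlapped. C1qa was lower in both older than in both younger mice of each population, and C1qc was so in SST mice only. With 2 libraries against 2, such separations arise easily by chance. Their share over all genes was not counted, so no age difference is read from them. In the edgeR fit 0 of the 7 genes passed for older against younger mice, where 0.0616% of all genes did. C1qa had a log2 fold change of -1.73 ± 0.66 (SE; unadjusted p = 0.0231, edgeR adjusted p = 0.513) and was the 1 gene of the 7 with an unadjusted p under 0.05, where 8.36% of all genes had one, so this count is near that of all genes. With no filter C1qa passed (adjusted p 0.0424), as did 1.5% of the genes then tested, and DESeq2, limma-voom and limma on TPM called 0 of the 7.

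Within age classes, C1qa had a PKCd minus SST log2 fold change of 5.88 ± 0.74 at 18 to 20 weeks and 3.80 ± 1.09 at 8 to 9 weeks (SE). C1qb had 5.71 ± 1.04 and 2.84 ± 1.25, and C1qc 5.56 ± 0.85 and 2.98 ± 1.04, in the same order of age classes. The receptors C3ar1 and C5ar1 had 6.44 ± 1.33 and 7.36 ± 1.65 at 18 to 20 weeks, and 2.02 ± 1.99 and 2.55 ± 3.16 at 8 to 9 weeks. With 2 libraries against 2, edgeR called 0 of these genes in either class (adjusted p of 0.105 or more). It also called 0 of all 12403 genes tested at 8 to 9 weeks and 0 of all 9806 at 18 to 20 weeks. The interaction of population and age class, which tests this difference itself, was passed by 0 of the 7 genes, and by 0% of all genes. For C1qc it was 2.57 ± 1.15 on the log2 scale (SE; unadjusted p = 0.0475, edgeR adjusted p = 1.00), the 1 gene of the 7 with an unadjusted p under 0.05, where 4.14% of all genes had one.

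**Figure D2:**
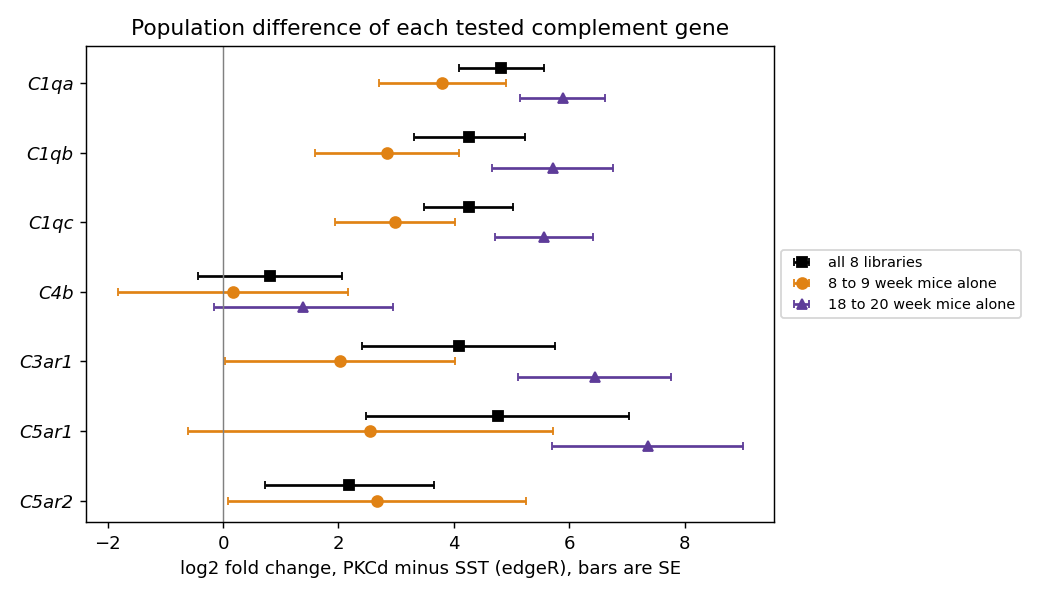
log2 fold change (edgeR, PKCd minus SST) of the 7 tested complement genes over all 8 libraries (squares), in mice of 8 to 9 weeks alone (circles) and in mice of 18 to 20 weeks alone (triangles); bars are SE. The values at 18 to 20 weeks lie to the right of those at 8 to 9 weeks for each C1q chain, C4b, C3ar1 and C5ar1, and C5ar2 had too few reads for a fit at 18 to 20 weeks.

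The third question was the proportion of the C1q chains, which join in equal numbers in the finished protein. C1qb was the most abundant chain in all 4 PKCd libraries and in SST replicates 1 and 3, and C1qc in SST replicates 2 and 4, while C1qa was the least abundant chain in every library. C1qa made up 21.5, 22.4, 15.2 and 15.5% of the summed C1q TPM in PKCd replicates 1 to 4, and 12.7, 14.7, 11.8 and 20.0% in SST replicates 1 to 4. C1qb made up 44.6, 49.1, 52.6 and 46.4% in PKCd replicates 1 to 4, and 57.5, 37.1, 51.8 and 38.8% in SST replicates 1 to 4. C1qc made up 33.9, 28.6, 32.2 and 38.1% in PKCd replicates 1 to 4, and 29.8, 48.2, 36.4 and 41.3% in SST replicates 1 to 4. The populations overlapped for each chain, and the spread among SST libraries was the wider for C1qb and C1qc.

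The mean share of C1qa was 18.7 ± 3.8% in PKCd and 14.8 ± 3.7% in SST libraries, that of C1qb 48.2 ± 3.5% and 46.3 ± 9.9%, and that of C1qc 33.2 ± 4.0% and 38.9 ± 7.8%, in the same order (mean ± SD, n = 4 each). In an exact permutation test (two-sided) these differences had p = 0.171, 0.714 and 0.257 for C1qa, C1qb and C1qc (0.386, 0.714 and 0.386 adjusted over the 3 shares), where the smallest p that 4 against 4 allows is 0.0286. A difference in proportion was therefore not detected with these libraries. As a ratio, C1qb over C1qa was 2.07, 2.19, 3.45 and 3.00 in PKCd replicates 1 to 4 and 4.53, 2.53, 4.38 and 1.94 in SST replicates 1 to 4. C1qc over C1qa was 1.58, 1.28, 2.11 and 2.46 in PKCd replicates 1 to 4 and 2.35, 3.29, 3.08 and 2.07 in SST replicates 1 to 4. C1qc over C1qb was 0.761, 0.582, 0.611 and 0.821 in PKCd replicates 1 to 4 and 0.519, 1.30, 0.703 and 1.06 in SST replicates 1 to 4. The populations overlapped in each of these ratios, while the mean levels of the chains differed 14.8- to 22.5-fold (24.6- to 43.0-fold without SST replicate 1).

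By counts, C1qc took 29.5% of the C1q counts in SST replicate 1 (95% Wilson interval 29.0 to 30.1%, of 29131 counts) and 47.8% in SST replicate 2 (46.7 to 49.0%, of 7397 counts). In SST replicate 4, with 191 C1q counts, the interval of C1qc ran from 34.1 to 47.9%. Because amplified reads are not separate molecules, such intervals, and the limits given for a count of 0, hold only the error of counting.

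**Figure D3:**
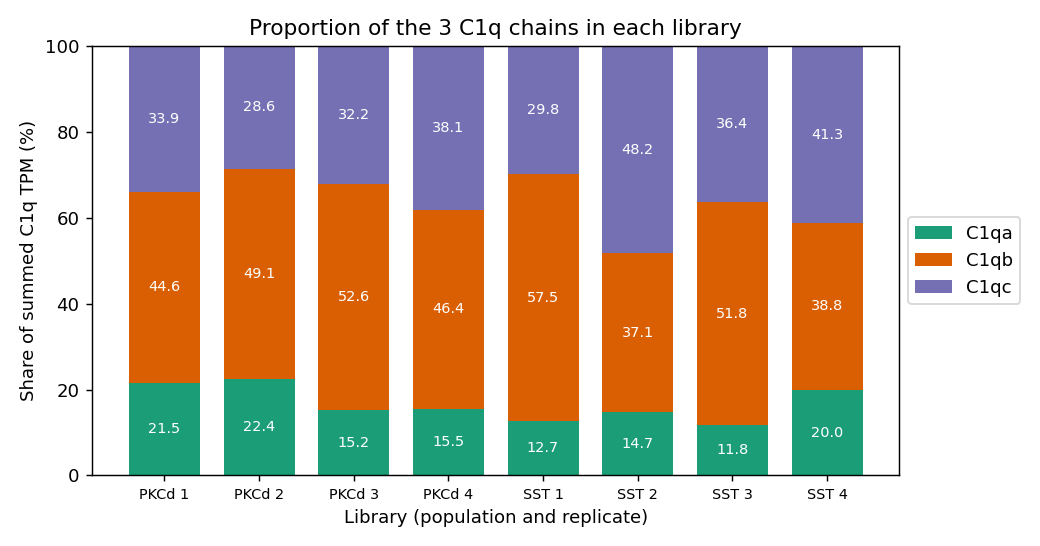
Share of C1qa, C1qb and C1qc in their summed TPM (vertical axis, %) in each PKCd library (left) and SST library (right), with each share printed in its bar. C1qa is the smallest share in all 8 libraries, 11.8 to 22.4%.

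The summed C1q level followed the microglial markers. Together the 3 chains stood at 19119, 18454, 23415 and 14460 TPM in PKCd replicates 1 to 4 (1.45 to 2.34% of all TPM), against 3000, 935.3, 679.2 and 138.6 TPM in SST replicates 1 to 4 (0.0139 to 0.300%). The 12 microglial markers without complement genes summed to 25305, 16727, 35659 and 21831 TPM in PKCd replicates 1 to 4, against 4345, 1259, 1000.5 and 379.1 TPM in SST replicates 1 to 4. C1q was thus 75.6, 110.3, 65.7 and 66.2% of the marker sum in PKCd replicates 1 to 4, and 69.0, 74.3, 67.9 and 36.6% in SST replicates 1 to 4. These percentages overlapped between the populations. All 12 markers were higher in every PKCd library than in every SST library, as were 4.08% of all genes tested. The edgeR test was passed by 4 markers (Tmem119, Cx3cr1, Csf1r and Fcrls), where it called 0.281% of all genes higher. DESeq2 called all 12 markers (3.21% of all genes higher) and limma-voom 7 (0.405%), and edgeR without SST replicate 3 called 1. None of the markers was at 0 in either population, and their part in the C1q difference was not tested.

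For single genes the percentage of the marker sum was 10 to 24.7% in PKCd and 7.31 to 10.9% in SST libraries for C1qa. It was 30.7 to 54.1% in PKCd and 14.2 to 39.7% in SST libraries for C1qb, and 21.1 to 31.5% in PKCd and 15.1 to 35.8% in SST libraries for C1qc. C3ar1 was 0.0898 to 0.262% of the marker sum in PKCd and 0.00423 to 0.299% in SST libraries. C4b, whose levels overlapped between the populations, was 0.00394 to 0.0925% in PKCd and 0.0595 to 1.61% in SST libraries. PKCd replicate 2, with the highest C1q percentage, also had the highest sum of 7 border macrophage markers, 517.2 TPM. That sum was 15.9 to 96.5 TPM in the other PKCd libraries and 0.111 to 3.61 TPM in SST libraries. In PKCd libraries most of it was Pf4, at 382.2 TPM in replicate 2 and 12.4 to 56.4 TPM in the others. Of the 7 markers Lyve1 was at 0 in all PKCd libraries, 3 were at 0 in all SST libraries, and their part was not tested.

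**Figure D4:**
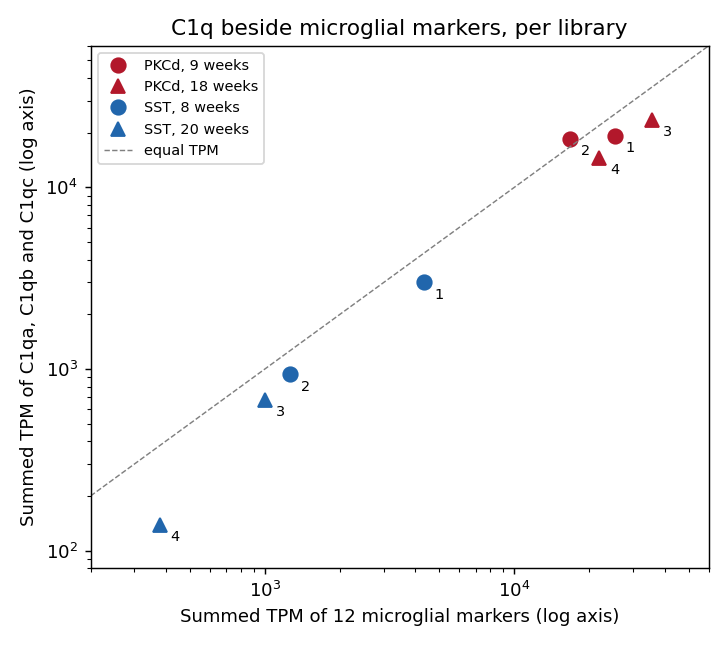
Summed TPM of C1qa, C1qb and C1qc (vertical axis) against the summed TPM of 12 microglial markers (horizontal axis) in each library, both axes logarithmic, with the replicate number beside each point and a dashed line at equal TPM. The 4 SST libraries run from 379.1 to 4345 TPM of markers and the 4 PKCd libraries from 16727 to 35659 TPM.

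The genes with the most constant ratio to a C1q chain over the 8 libraries were ranked among 8078 genes of mean TPM at least 10 by the SD of the log2(TPM + 1) difference. For C1qa they were Pycard (SD 0.47), Vsir (0.49), Selplg (0.53), Cx3cr1 (0.54) and Itgam (0.69). For C1qb they were Cd68 (0.39), Ctss (0.40), Ly86 (0.54), Aif1 (0.56) and Trem2 (0.58), and for C1qc Vsir (0.45), Selplg (0.47), Ctss (0.48), Fcgr3 (0.52) and Cx3cr1 (0.53). Between the chains themselves the SD was 0.45 to 0.48, and its median over all genes compared was 3.04 to 3.27. Cx3cr1, Ctss, Aif1 and Trem2 are on the microglial marker list.

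Other components and regulators of complement were taken as a list of 50 genes, of which 37 had a count and 18 could be tested. None of the 18 passed in edgeR (7 had an unadjusted p under 0.05, against 6.68% of all genes), with a median log2 fold change of 0.0051; DESeq2 called Itgam and Itgb2 higher and Sez6 and Vtn lower in PKCd libraries, as it did 3.21% and 0.809% of all genes, and limma-voom called Itgam higher. The proteases that act with C1q were scarce: C1ra, C1rb, C1s1 and C1s2 together had 0 to 2.89 TPM in PKCd and 4.6 to 23.6 TPM in SST libraries, and these paralogs share sequence, so their single values are uncertain. C2, Cfb, Cfd, Cfp and C4a, which belong to the convertase stages, summed to 0 to 7.21 TPM in PKCd and 0 to 14.4 TPM in SST libraries. The terminal components, Hc (which encodes C5), C6, C7, C8a, C8b, C8g and C9, summed to at most 0.537 TPM in a PKCd library and 0.475 TPM in an SST library.

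The most abundant genes of the list that are described here were regulators and binding partners, and none passed the edgeR test. Clu, which encodes clusterin, an inhibitor of the terminal complex, had 2464 ± 1351 TPM in PKCd and 4536 ± 1612 TPM in SST libraries (mean ± SD, n = 4 each). Vtn, which encodes vitronectin, another such inhibitor, had 1431 ± 1344 TPM in PKCd and 5479 ± 2678 TPM in SST libraries (log2 fold change -2.71 ± 0.95 SE, edgeR adjusted p 0.476). Vtn is also on the list of 4 mural cell markers, of which the other 3 summed to 350.9 ± 257.0 TPM in PKCd and 1126 ± 642 TPM in SST libraries, and the part of those cells was not tested. Serping1, which encodes the C1 inhibitor, had 18.0, 0, 1.07 and 62.2 TPM in PKCd replicates 1 to 4, against 188.5, 31.2, 249.8 and 295.5 TPM in SST replicates 1 to 4, with 1 PKCd library within the SST range (edgeR adjusted p = 0.627). Calr, a chaperone that C1q can bind, had 326.1 ± 94.2 TPM in PKCd and 234 ± 102.4 TPM in SST libraries, and Cr1l, a membrane regulator of C3 and C4 fragments, had 96.4 ± 45.4 TPM in PKCd and 91.3 ± 23.4 TPM in SST libraries.

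3 further genes of the list, named after their values were seen, were higher in all 4 PKCd libraries than in all 4 SST libraries. They were 3 of the 18 genes tested, where 4.08% of all genes tested were separated in this way. Itgam and Itgb2, the chains of complement receptor 3, which binds C3 fragments, had 93.0 ± 18.5 and 140.3 ± 66.0 TPM in PKCd and 4.07 ± 5.45 and 6.53 ± 6.80 TPM in SST libraries (log2 fold changes 4.66 ± 0.99 and 4.15 ± 1.08 SE, edgeR adjusted p 0.112 and 0.240). Lrp1, an endocytic receptor, had 32.3 ± 9.5 TPM in PKCd and 9.91 ± 7.74 TPM in SST libraries (edgeR adjusted p = 0.423).

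**Figure D5:**
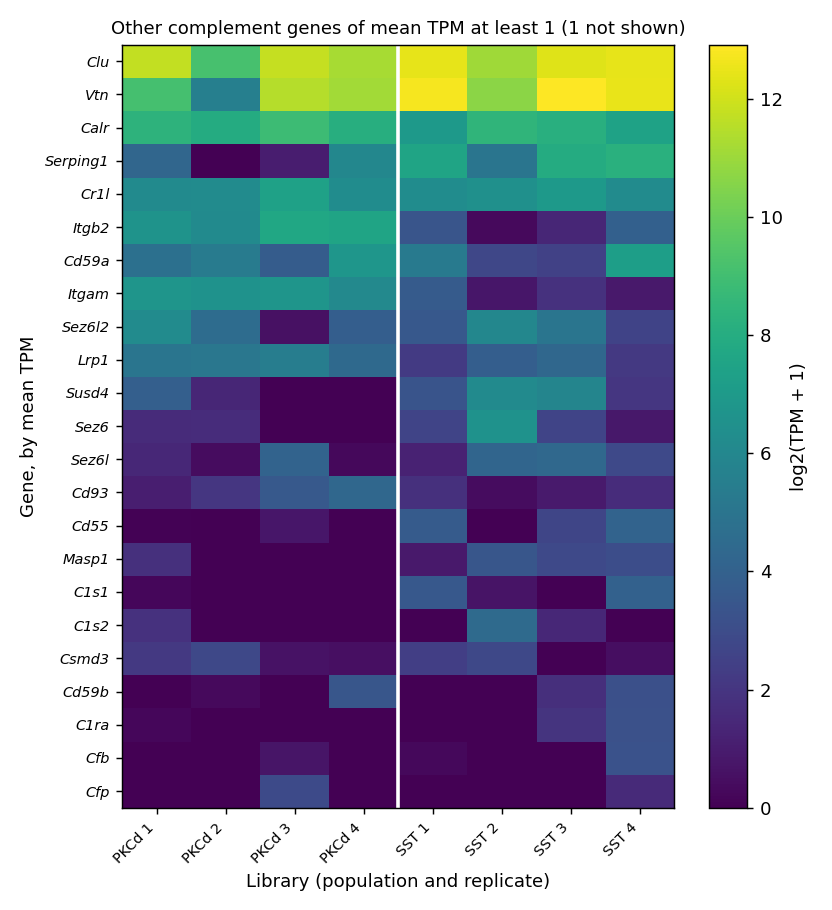
log2(TPM + 1) (colour) of complement genes outside the 8 that had a mean of at least 1 TPM, all but 1 of them, ordered by mean TPM, in the 4 PKCd libraries (left of the white line) and the 4 SST libraries (right). Itgam and Itgb2 are brighter in PKCd libraries, Serping1 is darker in 3 of the 4 than in any SST library, and the genes of the lower rows are near 0 in most libraries.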

How the data were processed

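Estimated counts and TPM per RefSeq transcript were made by the authors, 1 deposited file a library, under the column names that kallisto writes, per the file headers. Kallisto 0.43.0, BWA 0.7.12 and the build mm10 appear in the submitters' processing notes; what BWA was used for is not given in those notes. TPM in the deposited files takes transcript length into account and has a fixed sum, so a few abundant genes can lower all others. Of 30404 targets, 29405 were named from the RefSeq table of GRCm38.p6 and 142 from GENCODE M21; 857 kept their accession. Both were summed over the targets of a gene, and the summed estimated counts rounded.

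Genes were tested with edgeR 4.0.16 (R 4.3.3) by quasi-likelihood (TMM, default filter by population, terms for age class and population, Benjamini-Hochberg over all genes, threshold 0.05), checked on simulated data. Unless age is named, fold changes on the log2 scale run PKCd minus SST; each SE follows from the fold change and its F statistic. Exact permutation tests used scipy 1.17.1. Alternatives were RLE and upper-quartile scaling, other filters, DESeq2 1.42.0, limma 3.58.1 (voom, and log2(TPM + 1) or log2(TPM + 0.1)), no age term, a replicate block, fits of 1 age class, and fits without 1 library. The fold of mean C1q TPM without 1 library and the mural marker sum without Vtn were added after seeing the data. Members, gene lists and the rule for named genes (all members, list genes past the threshold, the 6 most abundant list genes and the 5 genes closest to each C1q chain) were chosen with earlier results of these data known. 1 of the 6 most abundant list genes is not reported here. Labels give each library its own mouse, so the spread behind a p-value holds differences between mice, sorts and amplifications. A single count weighed 0.0548 CPM at the greatest depth and 1.04 CPM at the least. Promoters of 6 of the 8 genes were in the table; C1qa and C4b had no entry. Protein sequences were not used here.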

Additional observations from a re-analysis of the deposited data

Results flagged for a closer look

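In 3 cases 1 library stood apart from the other 3 of its population by a gap that was more than 0.829 of the whole range. That is Dixon's critical value for 4 samples. For independent groups of normally distributed values chance gives about 1 such case in 20 groups, and 21 groups were looked at. Those groups held TPM, in part at or near 0, and shares that depend on each other, so the rate here may be higher. C3ar1 stood at 13 TPM in SST replicate 1, against 0.0532 to 1.03 TPM in the other SST libraries. C5ar1 stood at 4.09 TPM in the same library, against 0 to 0.549 TPM. SST replicate 1 also had the highest sum of microglial markers of the SST libraries, 4345 TPM. C3 stood at 0.127 TPM in SST replicate 4, which was 1 count, against 0 in the other SST libraries; a single count among zeros meets this criterion by construction, so it says nothing about that library.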

How the results depend on the processing

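Of the 7 tested genes, 1 passed for PKCd against SST in the main fit, 4 of 8 with no filter, 4 in DESeq2, 3 in limma-voom, 3 in limma on log2(TPM + 1) and 3 on log2(TPM + 0.1), and 0 with no age term, in mice of 8 to 9 weeks alone and in mice of 18 to 20 weeks alone; leaving out 1 library gave 0 to 3, the 3 C1q chains without SST replicate 1. Over all genes, 32 passed in the main fit, 271 with no filter (220 higher, 51 lower), 457 in DESeq2 (365 higher, 92 lower), 132 and 69 in limma on log2(TPM + 1) and log2(TPM + 0.1), 0 in each age class alone and 10 to 52 with 1 library left out. For older against younger mice 1 of the 7 passed with no filter and 0 in the main fit. The difference in C1qb share was 1.88 percentage points, -0.47 at 8 to 9 weeks alone and -1.18 to 5.61 with 1 library left out (-1.18 without SST replicate 2, -0.62 without SST replicate 4). At 18 to 20 weeks alone the difference in C1qa share was -0.53 percentage points and that in the log2 ratio of C1qb over C1qa was 0.14. The difference in C1qa share, 3.87 in all, was 8.27 at 8 to 9 weeks alone and 2.63 to 5.6 with 1 library left out; that in C1qc share, -5.75 in all, was -8.78 without SST replicate 1 and -2.65 without SST replicate 2. C4b was -0.37 in limma-voom. The cause of these changes was not tested. The log2 fold changes of C1qa, C1qb, C1qc, C3ar1, C5ar1 and C5ar2 stayed positive under every alternative in which they could be fitted.

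Replicate numbers are shared between the populations, but each library is a different mouse. Same-numbered libraries correlated at 0.08 to 0.211 in their deviations from the population means, and 4 of 8 libraries correlated best with their own number. After age class was also removed these were -0.305 to -0.000958 and 0 of 8. Removing both terms from so few libraries by itself pushes same-numbered libraries, which share an age class, towards negative correlation. The values after that step therefore cannot decide whether the numbers are pairs. With the replicate number as a block 24 genes passed, C1qa among them (edgeR adjusted p = 0.0276). C3, C3ar1, C5ar1 and C5ar2 had 0 to 4 counts in both SST libraries of 20 weeks, which limits their values there.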

Other observations

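The C1q-related synaptic proteins, secreted factors that share the C1q domain but are not complement, were measured as 8 genes, C1ql1 to C1ql4 and Cbln1 to Cbln4. 7 had a count, 2 could be tested and 0 passed in edgeR, DESeq2 or limma-voom. Of these 2, 1 had an unadjusted p under 0.05 in edgeR, where 6.68% of all genes had one. C1ql1 had 21.6, 0, 0 and 0 TPM in PKCd replicates 1 to 4, against 66.5, 444.7, 9.09 and 0 TPM in SST replicates 1 to 4. SST replicate 2 also had the highest sum of 4 oligodendrocyte precursor markers, 983.8 TPM; C1ql1 is 1 of these 4. The sum lay between 7.06 and 71.9 TPM in PKCd libraries, against 30.1 to 110.7 TPM in the other SST libraries.

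Neutrophils and monocytes also carry C5a receptors. Their 5 markers summed to 0.331 to 14.5 TPM in PKCd libraries, where C5ar1 stood at 0.826 to 59.9 TPM. They summed to 195.5 TPM in SST replicate 3 and 72.3 TPM in SST replicate 4, where C5ar1 stood at 0 and 0.549 TPM; in SST replicate 4 the sum was mostly Ccr2, 67.3 TPM. The part of these cells in the C5ar1 values was not tested.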
